A study of Mus musculus with 9 samples.

Results

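Transcripts of 10 genes of the BCL2 family, which set whether a cell dies through its mitochondria, were measured in the mouse pancreatic tumour line PancOVA, kept in contact with pancreatic fibroblasts. The genes were given by name, not by their values here: Bcl2, Bcl2l1, Mcl1, Bax, Bak1, Bcl2l11, Bbc3, Pmaip1, Bid and Bad. Each name was found in 1 of the 41457 rows of the deposited table, and all 10 passed the filter of at least 1 TPM in at least 3 libraries, as did 11704 genes in all. TPM is a transcript's share of 1000000 transcripts after correction for gene length.

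The fibroblasts were stellate cells of the labelled line mPSC45 that carry CD90.1, and all were first made quiescent in matrigel with little serum. In the iCAF group they were then primed with conditioned medium for 48 h towards the state the labels name Tc17-iCAF. In the myCAF group they were primed for 48 h with recombinant TGF-β1 at 2 ng/ml. In the qPSC group, the background control, they were left quiescent. In all 3 groups, dye-labelled PancOVA cells were added for 48 h of co-culture in fresh matrigel, released with collagenase, and sorted by the dye. There were 3 libraries per group. A group thus stands for 1 tumour line with 1 stellate line, and PancOVA cells without fibroblasts were not analysed here. The labels do not say whether replicates came from separate cultures, so the p-values below measure the spread between libraries, which may be technical.

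In the mitochondrial pathway of apoptosis, the effectors BAX and BAK open pores in the outer mitochondrial membrane and release cytochrome c, which activates caspases. The guards BCL2, BCL-XL and MCL1 hold the effectors and their activators in check. BH3-only proteins such as BIM, PUMA, NOXA, BID and BAD report stress, growth factor loss or DNA damage and act by binding the guards, and some of them also activate the effectors directly. Pancreatic tumour cells are known to depend on BCL-XL and MCL1. Many of these proteins are set by phosphorylation, cleavage or turnover, which transcript levels do not show.

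The 9 libraries held 38870594 to 45317253 reads as implied by the steps between low TPM values. One library, iCAF replicate 3, stood apart: ribosomal protein genes took 21.3% of its TPM, against 14.3% to 15.2% in the other 8, and long genes were low in it. Of 5 genes of dividing cells, Mki67, with 10061 bases of exon, lay at 44.0 TPM in this library, against 87.5 TPM in iCAF replicate 1 and 118 TPM in iCAF replicate 2. Top2a lay at 148 TPM in replicate 3, against 242 TPM in replicates 1 and 2. Ccnb1, with 4217 bases, lay at 103 TPM in replicate 3, against 146 TPM in replicate 1 and 137 TPM in replicate 2. Cdk1, with 4934 bases, lay at 104 TPM in all 3 iCAF libraries. Pcna lay at 528 TPM in replicate 3, against 522 TPM in replicate 1 and 530.1 TPM in replicate 2. Results are therefore also given without iCAF replicate 3. The keratin gene Krt8 lay between 744 and 830 TPM and Krt18 between 806 and 956 TPM in all libraries. Krt19 lay at 11.2 to 36.1 TPM in iCAF, 36.9 to 44.8 TPM in myCAF and 10.4 to 18.8 TPM in the qPSC libraries, and Krt7 stayed at or below 0.128 TPM. Of the other epithelial genes, the adhesion genes Epcam and Cdh1 were at or below 0.03 TPM, and of 9 leukocyte genes 1 passed the filter, with Cd8a at 0 in all libraries and Ptprc at 0 in 8 of them and at 0.00376 TPM in qPSC replicate 3. Of 18 listed fibroblast genes, 13 passed the filter in the sorted cells. The other 5, Col1a2, Lum, Tagln, Cdh11 and Fap, stayed under 1 TPM, with Col1a2 at 0.17 to 0.28 TPM and Fap under 0.1 TPM. The summed level of the 18 genes was 357 to 595 TPM in iCAF, 622 to 1010 TPM in myCAF and 581 to 683 TPM in the qPSC libraries. Sparc alone gave 173 to 240 TPM of it. Whether these transcripts came from fibroblasts or from tumour cells was not tested. Col1a1 lay at 28.8 to 72.9 TPM in iCAF, 68.2 to 158 TPM in myCAF and 54.0 to 69.9 TPM in the qPSC libraries. In a bulk library, fewer cells of a type and less RNA per cell cannot be told apart.

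The tumour cells held transcripts of all 3 classes, with the effector Bax on top. Mean levels over the 9 libraries ran from Bax at 274 TPM through Mcl1 at 129, Bak1 at 118, Bad at 56.1, Bcl2l1 at 47.2, Bbc3 at 29.2, Bid at 28.2, Bcl2l11 at 13.9 and Bcl2 at 10.1 to Pmaip1 at 1.01 TPM. The order of neighbours held in 9 of 9 libraries, apart from Mcl1 over Bak1 and Bbc3 over Bid, each of which held in 6 of 9, so those pairs did not differ beyond their spread. TPM is per length, here that of all annotated exons of a gene merged, which can exceed the length of the transcript made. Levels of different genes can thus be set beside each other only roughly, and least in iCAF replicate 3, where level moved with gene length.

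**Figure D1:**
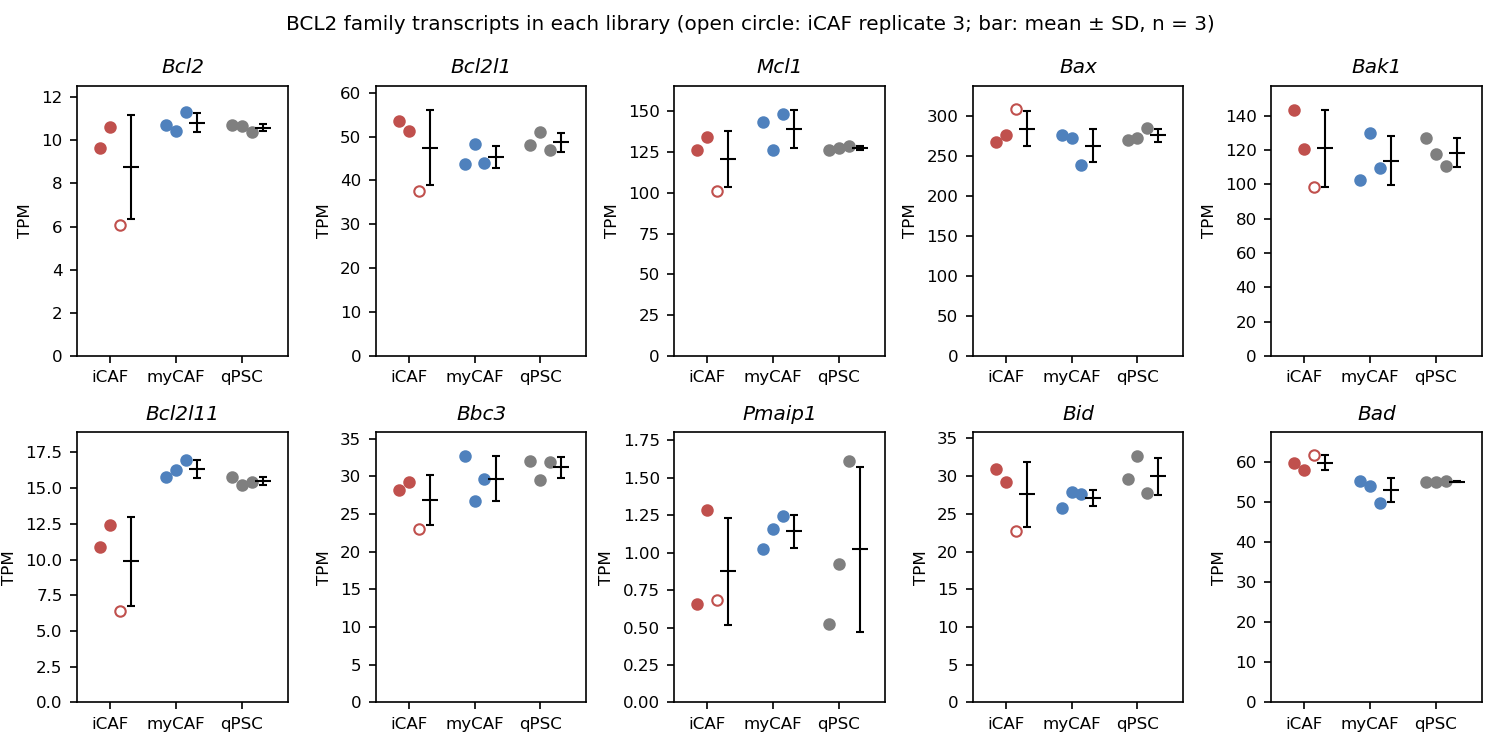
TPM (y axis, from 0) of each BCL2 family gene in each library by group (x axis), with the open circle for iCAF replicate 3 and bars for mean ± SD (n = 3). Bcl2l11 is the gene whose 3 iCAF libraries, at 6.39 to 12.4 TPM, lie farthest below the other groups, and iCAF replicate 3 is the lowest of its group for Bcl2, Bcl2l1, Mcl1, Bak1, Bcl2l11, Bbc3 and Bid and the highest for Bax and Bad.

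No BCL2 family gene passed the test in any of the 3 comparisons, and Bcl2l11, which encodes BIM, came nearest. Of the 10 genes, 0 passed at an adjusted p of 0.05 in iCAF against qPSC, 0 in myCAF against qPSC and 0 in iCAF against myCAF (limma, Benjamini-Hochberg over all 11704 genes), where the share of all genes that passed was 0.598%, 0% and 0.0598%. At an unadjusted p under 0.05 the family had 1 gene in iCAF against qPSC, 0 in myCAF against qPSC and 2 in iCAF against myCAF, beside 15.8%, 6.43% and 17.9% of all genes. With limma-voom on the implied reads, 0 of the 10 passed in each comparison. The iCAF and myCAF comparisons with qPSC share the qPSC libraries, and their values are given side by side.

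The family's median log2 fold change on the log2(TPM + 1) scale was -0.09 in iCAF against qPSC, beside -0.15 for all genes. It was -0.06 in myCAF against qPSC, beside 0.01 for all genes, and -0.06 in iCAF against myCAF, beside -0.15. In iCAF against qPSC, 3 of the 10 had groups that did not overlap, beside 27.8% of all genes. Of these, 1 gene, Bad, was above (4.67% of all genes) and 2, Bcl2l11 and Bbc3, were below (23.2% of all genes). In myCAF against qPSC it was 0 of 10, beside 23.9% of all genes, with 11.3% above and 12.5% below. In iCAF against myCAF it was 2 of 10, beside 22.8% of all genes, with 1 gene, Bad, above (4.55% of all genes) and 1, Bcl2l11, below (18.3% of all genes). Read against these shares, the counts of family members are not a result about the family.

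**Figure D2:**
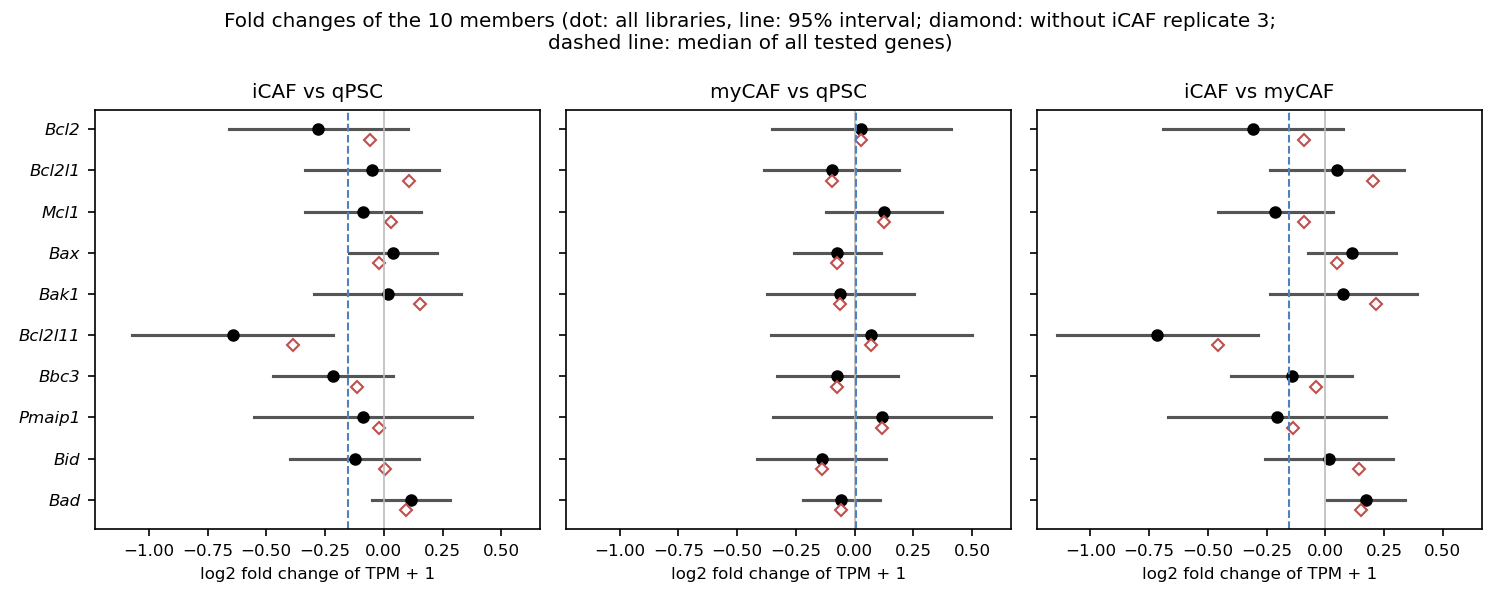
Log2 fold change of TPM + 1 (x axis) of each BCL2 family gene (rows) in the 3 comparisons, with dots and 95% intervals for all libraries, diamonds for values without iCAF replicate 3, and a dashed line at the median of all tested genes. The Bcl2l11 intervals, -1.07 to -0.21 against qPSC and -1.14 to -0.29 against myCAF, lie below 0, while all 10 intervals of myCAF against qPSC cross it. The spread of a gene is estimated over all 9 libraries, so iCAF replicate 3 enters the width of the myCAF against qPSC intervals too.

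Among the guards, Bcl2, the founding member that sits on mitochondria and endoplasmic reticulum, had the lowest level. Its 9157 bases of exon lie in a gene on the - strand at chr1:106538178-106714274 (GENCODE M21, GRCm38). Bcl2 was at 9.64, 10.6 and 6.05 TPM in iCAF libraries, 10.7, 10.4 and 11.3 TPM in myCAF libraries, and 10.7, 10.6 and 10.4 TPM in qPSC libraries. The myCAF and qPSC libraries lay within a narrow band, iCAF replicate 2 lay inside it, and iCAF replicate 3 was the lowest of all 9. The log2 fold change was -0.28 ± 0.17 (SE) in iCAF against qPSC (limma, adjusted p = 0.372), 0.03 in myCAF against qPSC and -0.31 in iCAF against myCAF (limma, adjusted p = 0.317). Without iCAF replicate 3 the iCAF difference from qPSC was -0.06.

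Bcl2l1, which encodes BCL-XL and lies on the - strand at chr2:152780668-152831728, was at 53.4, 51.4 and 37.7 TPM in iCAF, 43.8, 48.3 and 44.1 TPM in myCAF, and 48.0, 51.1 and 46.9 TPM in qPSC libraries. The iCAF libraries held both the highest values and the lowest, so the groups overlapped throughout. Its log2 fold change was -0.05 ± 0.13 (SE) in iCAF against qPSC, with a 95% interval from -0.34 to 0.24, -0.10 in myCAF against qPSC and 0.05 in iCAF against myCAF. The sign in iCAF against qPSC turned to 0.15 when each library was centred on its median.

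Mcl1, a short-lived guard with high turnover, carried most guard transcripts, at 66.7% to 72.8% of the summed TPM of the guards in the 9 libraries. It lies on the + strand at chr3:95658788-95663176. Mcl1 was at 127, 134 and 101 TPM in iCAF, 143, 126 and 148 TPM in myCAF, and 126, 127 and 129 TPM in qPSC libraries. The highest values were 2 myCAF libraries and the lowest was iCAF replicate 3, with the other myCAF library level with the qPSC libraries. The log2 fold change was -0.09 ± 0.11 (SE) in iCAF against qPSC (95% interval -0.33 to 0.16), 0.12 in myCAF against qPSC, and -0.21 in iCAF against myCAF (95% interval -0.46 to 0.03, limma, adjusted p = 0.302). Centring turned the iCAF and qPSC difference to 0.11. Summed over the 3 guards, the level was 177 ± 27.9 TPM in iCAF, 196 ± 9.58 TPM in myCAF and 187 ± 2.11 TPM in the qPSC libraries (SD, n = 3 each).

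The effectors held the most transcripts of the family. Bax, on the - strand at chr7:45461697-45466898, was at 267, 276 and 309 TPM in iCAF, 276, 273 and 239 TPM in myCAF, and 269.7, 273 and 285 TPM in qPSC libraries. Bak1, on the - strand at chr17:27019810-27029009, was at 143, 121 and 98.6 TPM in iCAF, 103, 129.6 and 109 TPM in myCAF, and 127, 117 and 111 TPM in qPSC libraries. The groups overlapped for both effectors, and within the iCAF group the library highest for Bax was the lowest for Bak1. Their log2 fold changes lay between -0.07 and 0.11 in the 3 comparisons (limma, adjusted p from 0.408 to 1). Together the effectors summed to 405 ± 6.97 TPM in iCAF, 377 ± 27.1 TPM in myCAF and 394 ± 3.61 TPM in the qPSC libraries (SD, n = 3 each). Bax took 65.1% to 75.8% of that sum.

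Bcl2l11 was the BH3-only gene that stood lowest in iCAF libraries. It encodes BIM, which binds all the guards and activates BAX and BAK, and which is known to be induced on growth factor withdrawal and held down by ERK signalling. The gene lies on the + strand at chr2:128126038-128162547 with 8029 bases of exon. Bcl2l11 was at 10.9, 12.4 and 6.39 TPM in iCAF libraries, 15.8, 16.3 and 17.0 TPM in myCAF libraries, and 15.8, 15.2 and 15.5 TPM in qPSC libraries. Every iCAF library was below every myCAF and every qPSC library, and myCAF and qPSC overlapped. The group means were 9.89 ± 3.12 TPM in iCAF, 16.3 ± 0.604 TPM in myCAF and 15.5 ± 0.264 TPM in the qPSC (SD, n = 3 each). Between 852 and 1803 implied reads stood behind each value.

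On the log2(TPM + 1) scale the Bcl2l11 difference was -0.64 ± 0.19 (SE, 95% interval -1.07 to -0.21) in iCAF against qPSC, and it did not pass (limma, adjusted p = 0.215, unadjusted p = 0.00769). In iCAF against myCAF it was -0.71 ± 0.19 (SE, 95% interval -1.14 to -0.29) and did not pass either (limma, adjusted p = 0.155, unadjusted p = 0.00421). In myCAF against qPSC it was 0.07, with a 95% interval from -0.36 to 0.50. The SE of 0.19 is shared by the 3 comparisons and includes the spread of the iCAF libraries. Among all genes, the iCAF and qPSC difference of Bcl2l11 ranked at percentile 4.23 from the most negative. Without iCAF replicate 3, Bcl2l11 passed as lower in both iCAF comparisons, at -0.39 against qPSC (limma, adjusted p = 0.0362) and at -0.46 against myCAF (limma, adjusted p = 0.0356). In that fit 174 genes (1.49% of all) passed against qPSC and 70 (0.598%) against myCAF. With the replicate block added, neither Bcl2l11 call was kept, at -0.37 against qPSC (limma, adjusted p = 0.148) and -0.45 against myCAF (limma, adjusted p = 0.166). With centring added, the call against qPSC was not kept, at -0.33 (limma, adjusted p = 0.0568), and that against myCAF was, at -0.40 (limma, adjusted p = 0.0402). Leaving out replicate 3 leaves 2 iCAF libraries, and over the 22 alternative settings the adjusted p ranged from 0.0362 to 0.551 against qPSC and from 0.0356 to 0.475 against myCAF.

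Because Bcl2l11 varied most between groups, the 250 bases before its 2 annotated starts are shown, with those of Bbc3, the other gene with a FOXO match, and of Bcl2, the guard with the most similar length and level. They are RefSeq sequences of GRCm38.p6, written 5′ to 3′ on the gene's strand. Capitals mark GTAAACA (FOXO core) or GGGCGG (SP1 core) on either strand.
Bcl2l11 start 1, + strand, chr2:128125788-128126037: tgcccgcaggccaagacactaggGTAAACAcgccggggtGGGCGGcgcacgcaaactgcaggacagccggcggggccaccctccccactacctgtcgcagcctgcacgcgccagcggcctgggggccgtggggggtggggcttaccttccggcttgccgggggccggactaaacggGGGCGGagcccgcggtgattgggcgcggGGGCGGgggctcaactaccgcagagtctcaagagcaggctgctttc
Bcl2l11 start 2, + strand, chr2:128127325-128127574: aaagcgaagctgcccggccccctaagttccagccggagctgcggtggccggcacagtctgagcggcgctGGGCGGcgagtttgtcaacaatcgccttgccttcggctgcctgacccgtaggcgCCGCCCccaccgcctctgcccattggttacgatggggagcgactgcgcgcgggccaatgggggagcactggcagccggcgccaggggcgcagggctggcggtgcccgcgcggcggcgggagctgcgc
Bbc3 start 2, + strand, chr7:16310011-16310260: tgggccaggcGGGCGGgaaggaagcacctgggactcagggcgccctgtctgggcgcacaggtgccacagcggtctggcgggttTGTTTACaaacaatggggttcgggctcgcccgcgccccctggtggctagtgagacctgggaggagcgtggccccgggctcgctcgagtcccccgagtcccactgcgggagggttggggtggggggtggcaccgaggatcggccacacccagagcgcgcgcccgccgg
Bcl2 start 1, - strand, chr1:106714291-106714540: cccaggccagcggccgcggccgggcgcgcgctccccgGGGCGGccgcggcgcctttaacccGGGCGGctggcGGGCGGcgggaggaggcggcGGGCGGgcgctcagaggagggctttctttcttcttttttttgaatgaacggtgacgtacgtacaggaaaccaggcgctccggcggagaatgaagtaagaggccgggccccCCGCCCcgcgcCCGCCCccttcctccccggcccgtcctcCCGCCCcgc

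The upstream Bcl2l11 window held 1 match to GTAAACA and 3 to GGGCGG, and the downstream window held 2 to GGGCGG. The Bbc3 window held 1 match to GTAAACA, on the other strand, and 1 to GGGCGG, and the Bcl2 window held 7 to GGGCGG. Searched on both strands, GTAAACA was in 2 of the family's 15 windows, which came from 9 of the 10 genes, and in 3.17% of all 32851 windows of this length. GGGCGG was in 10 of 15 and in 32.7% of all. CACGTG, the MYC core, was in 2 of 15 windows, of Bax and Bbc3, and in 6.02% of all, and each of these is also a match to ACGTG, the HIF core, found in 2 of 15 and in 16.6% of all. A p53 half-site by name was in 1 of 15, the Bax window, and in 7.13% of all, and TTTNGCGC (E2F) was in 1 of 15, a Bcl2l1 window, and in 1.13%. TTCNNNGAA (STAT, 7.02% of all windows), the IRF core by name (2.98%), TGATGNAA (ATF4, 3.45%) and the NF-kB core by name (0.28%) were in 0 of 15. The family's windows were rich in G and C, with a median of 64.4% against 52.4% for all windows, and held a median of 21 CpG dinucleotides against 6. A match or its lack describes the letters of a window and says nothing of binding.

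The other BH3-only genes differed less. Bbc3, which encodes the p53 target PUMA and lies on the + strand at chr7:16308393-16318205, was at 28.1, 29.3 and 23.0 TPM in iCAF, 32.7, 26.8 and 29.6 TPM in myCAF, and 32.1, 29.5 and 31.9 TPM in qPSC libraries. The iCAF libraries lay just below the qPSC libraries, with a gap smaller than the spread within the iCAF group, and overlapped the myCAF libraries. Its log2 fold change was -0.22 ± 0.11 (SE) in iCAF against qPSC (limma, adjusted p = 0.339) and -0.11 without iCAF replicate 3.

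Bad encodes a sensitizer that binds BCL2 and BCL-XL and is silenced by growth factor kinases through phosphorylation. It lies on the + strand at chr19:6941861-6951899. Bad was at 60.0, 58.0 and 61.9 TPM in iCAF, 55.4, 54.1 and 49.8 TPM in myCAF, and 55.1, 55.1 and 55.3 TPM in qPSC libraries. All 3 iCAF libraries were above all 6 others, a pattern opposite in direction to Bcl2l11. The difference was 0.12 ± 0.07 (SE) against qPSC (limma, adjusted p = 0.380) and 0.17 ± 0.07 (SE, 95% interval 0.01 to 0.34) against myCAF (limma, adjusted p = 0.266). Bad overlaps Gpr137 on the other strand, which had a mean of 25.6 TPM. The kit was stranded per the labels, but whether the quantification used the strand is not given in the sources used here.

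Bid, which encodes the protein that caspase-8 cleaves to link death receptors to mitochondria, lies on the - strand at chr6:120891930-120916853. It was at 30.9, 29.2 and 22.7 TPM in iCAF, 25.8, 27.9 and 27.6 TPM in myCAF, and 29.6, 32.7 and 27.8 TPM in qPSC libraries. The iCAF libraries spanned nearly the whole range, from the lowest value to the second highest. Its log2 fold changes were -0.12 in iCAF against qPSC, -0.14 in myCAF against qPSC and 0.02 in iCAF against myCAF (limma, adjusted p from 0.531 to 1). Bid overlaps Bcl2l13 on the other strand, with a mean of 20.0 TPM.

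Pmaip1, which encodes the MCL1 antagonist NOXA, was close to the detection limit of the filter. It was at 0.66, 1.29 and 0.68 TPM in iCAF, 1.02, 1.16 and 1.24 TPM in myCAF, and 0.52, 0.93 and 1.61 TPM in qPSC libraries. The qPSC libraries held both the lowest value and the highest. Its log2 fold change in iCAF against qPSC was -0.09, with a 95% interval from -0.55 to 0.37. This interval holds both falls and rises, and 18.6 to 64.0 implied reads per library stood behind the values. The smallest difference that could be detected was not worked out.

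Within a library, the guards Bcl2, Bcl2l1 and Mcl1 were each higher relative to Bcl2l11 in iCAF co-cultures. The ratios of these 3 genes to Bcl2l11 were chosen after the values were seen and are given without a test. A ratio was not worked out for Bcl2l2, a family gene outside the 10 that also passed the filter. The pattern is thus not stated for all guards. The Bcl2 to Bcl2l11 ratio was 0.886, 0.856 and 0.947 in iCAF, 0.678, 0.642 and 0.668 in myCAF, and 0.680, 0.698 and 0.673 in qPSC libraries. Here iCAF replicate 3 lay near the other iCAF libraries, and the 2 genes have similar exon lengths of 9157 and 8029 bases. The Bcl2l1 to Bcl2l11 ratio was 4.91, 4.15 and 5.90 in iCAF, 2.78, 2.97 and 2.60 in myCAF, and 3.04, 3.35 and 3.04 in qPSC libraries. The Mcl1 to Bcl2l11 ratio was 11.6, 10.8 and 15.8 in iCAF, 9.09, 7.76 and 8.74 in myCAF, and 8.0, 8.35 and 8.34 in qPSC libraries. For all 3 ratios every iCAF library was above every other library. All 3 are divided by Bcl2l11, which was itself lower in every iCAF library. Their separation thus largely restates the Bcl2l11 values and is not 3 separate results. Bcl2l1, with 4586 bases of exon, and Mcl1, with 3418, are shorter than Bcl2l11. Their ratios were highest in iCAF replicate 3, where long genes were low. Bcl2l11 took 5.57% to 9.52% of the summed BH3-only TPM in iCAF, 12.1% to 13.6% in myCAF and 11.4% to 11.8% in qPSC libraries. The Bax to Bak1 ratio overlapped between groups, at 1.86 to 3.14 in iCAF, 2.11 to 2.69 in myCAF and 2.12 to 2.58 in qPSC libraries.

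**Figure D3:**
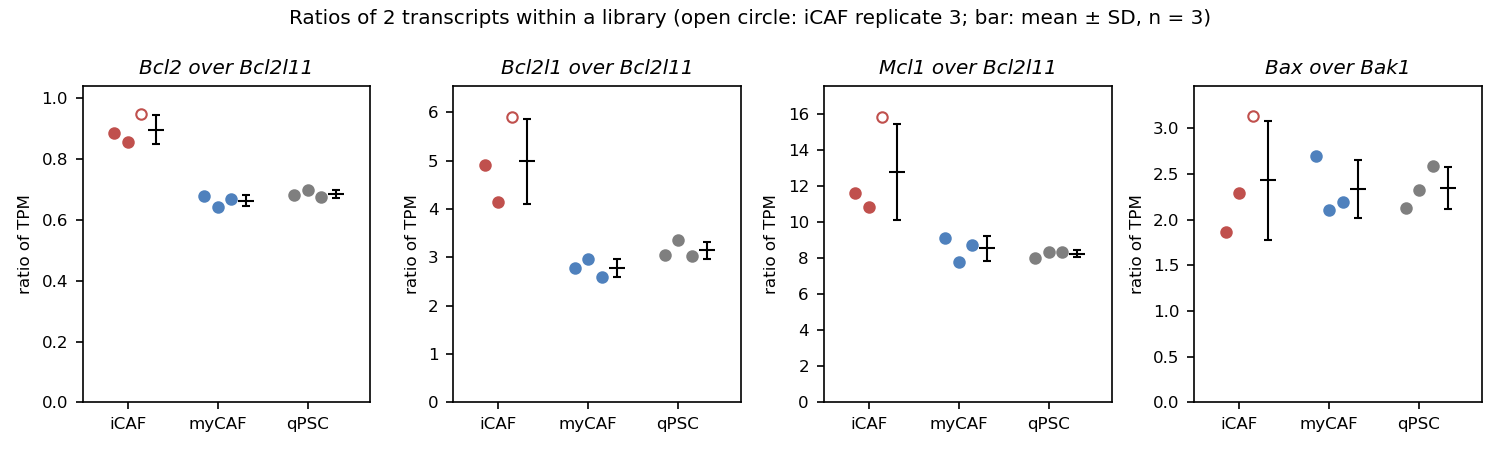
Ratios of TPM within a library (y axes, from 0) by group (x axis), with the open circle for iCAF replicate 3 and bars for mean ± SD (n = 3). The Bcl2 to Bcl2l11 ratio was 0.896 ± 0.0463 in iCAF, 0.663 ± 0.0184 in myCAF and 0.684 ± 0.0130 in qPSC libraries, and the Bax to Bak1 ratio overlaps between groups.

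Gene length moved with the level in iCAF replicate 3. Set against the qPSC mean, the median log2 difference in this library was 0.06 for 1818 genes with under 2000 bases of exon, -0.27 for 3480 genes of 2000 up to 4000 bases, -0.50 for 4366 genes of 4000 up to 8000 bases and -0.77 for 1982 genes of 8000 bases or more. In the longest class it was -0.11 in iCAF replicate 1 and -0.03 in iCAF replicate 2. Relative to the mean of the other iCAF libraries, replicate 3 was at -0.77 for Bcl2l11 and -0.66 for Bcl2, the longest of the 10 genes, and at 0.19 for Bax, the shortest. With the length trend removed from each library, Bcl2l11 passed as lower, at -0.39 against qPSC (limma, adjusted p = 0.0472) and at -0.46 against myCAF (limma, adjusted p = 0.0468). In that fit 104 of 11646 genes (0.893%) passed against qPSC and 46 (0.395%) against myCAF. With the trend removed and replicate 3 left out, the differences were -0.34 (limma, adjusted p = 0.0444) and -0.40 (limma, adjusted p = 0.0384). Bcl2 was at -0.01 against qPSC with the trend removed. The summed fibroblast genes, at 357 to 595 TPM in iCAF, lay below the 622 to 1010 TPM of the myCAF libraries. They overlapped the 581 to 683 TPM of the qPSC libraries, and the lowest sum was that of iCAF replicate 3. The part of the fibroblast genes in the Bcl2l11 result was not tested.

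**Figure D4:**
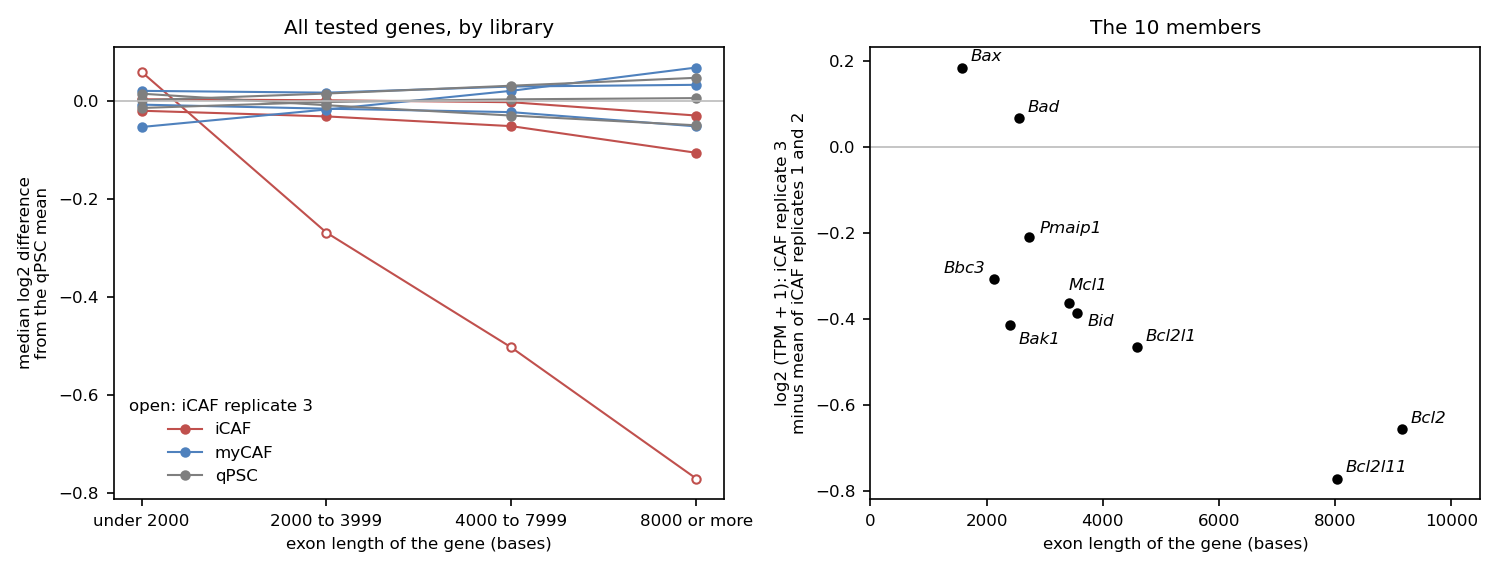
Left, median log2 difference from the qPSC mean (y axis) of all tested genes in 4 classes of exon length (x axis), 1 line per library, with open circles for iCAF replicate 3. Right, iCAF replicate 3 minus the mean of iCAF replicates 1 and 2 (y axis, log2) against exon length (x axis, bases) for the 10 genes, which runs from 0.19 for Bax to -0.77 for Bcl2l11.

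**Figure D5:**
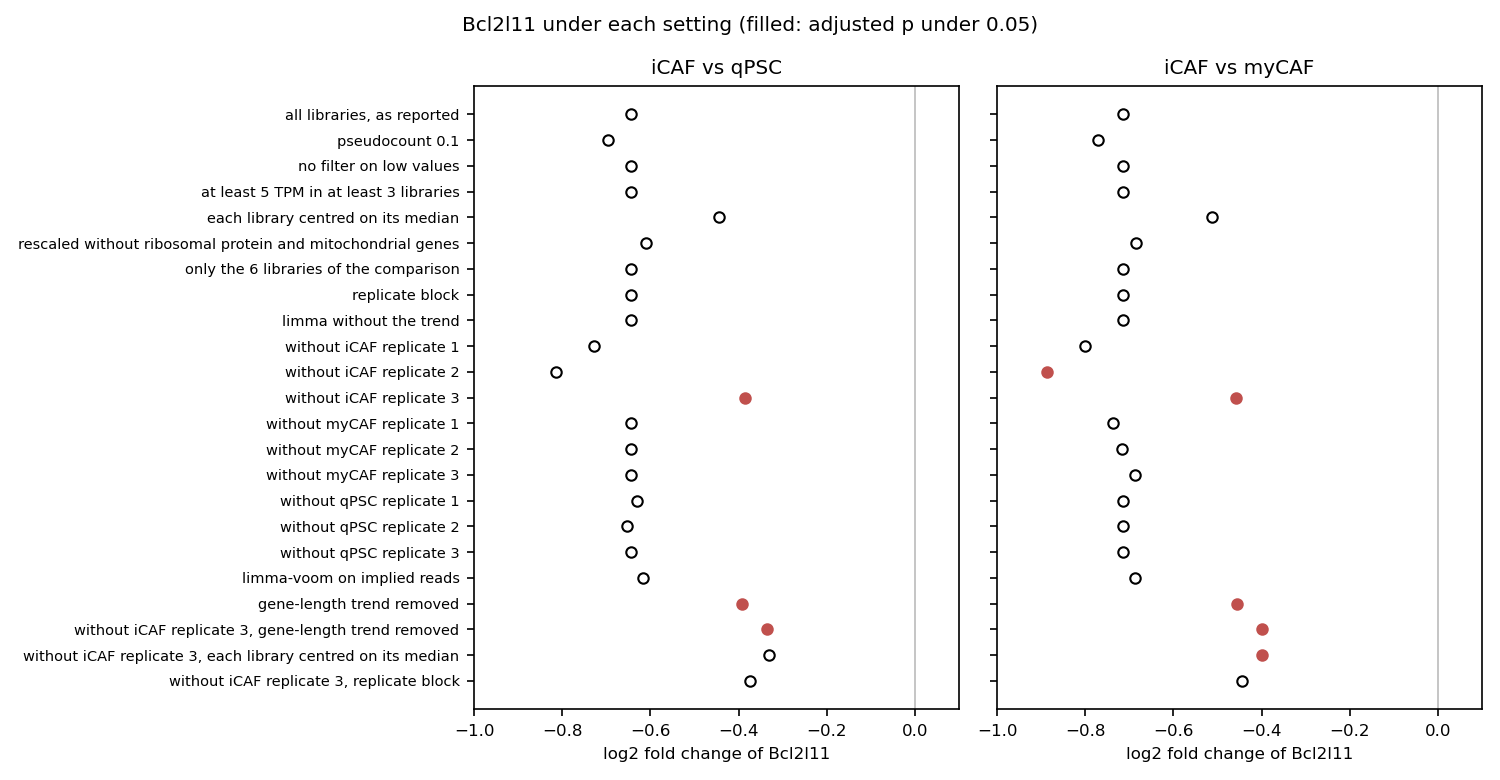
Log2 fold change of Bcl2l11 (x axis) under each processing setting (rows) in iCAF against qPSC and iCAF against myCAF, filled where the adjusted p was under 0.05. All values are below 0, and 3 of 22 alternatives passed against qPSC and 5 of 22 against myCAF.

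Other genes of the pathway were described from 6 lists. None of their genes passed in a comparison with all libraries (limma, 0 in each direction for each list). Of 14 other BCL2 family genes, 5 passed the filter on low values. Of these, Bmf, a BH3-only gene, was at 4.35, 2.89 and 1.71 TPM in iCAF, 3.77, 4.71 and 4.00 TPM in myCAF, and 4.73, 4.62 and 4.53 TPM in qPSC libraries, a log2 difference of -0.55 against qPSC (limma, adjusted p = 0.300). Bok, an effector-like gene, averaged 67.0 ± 5.57 TPM in iCAF, 55.0 ± 2.21 TPM in myCAF and 65.1 ± 1.47 TPM in the qPSC libraries (SD, n = 3 each). The myCAF libraries lay below all others. The Bok difference in myCAF against qPSC was -0.24 (limma, adjusted p = 0.517), and it passed without iCAF replicate 3 (limma, adjusted p = 0.0458, range over the alternatives 0.0381 to 1), as did 331 genes (2.83% of all). With the block added to that fit Bok did not pass (limma, adjusted p = 0.124). Nor did it with the length trend removed or centring added instead (limma, adjusted p = 0.0644 and 0.0997). In iCAF against myCAF it was 0.28 (limma, adjusted p = 0.177).

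Of the 18 tested genes of the apoptosome, caspases and inhibitors of apoptosis, 15 had negative values in iCAF against qPSC, with a median of -0.11 beside -0.15 for all genes, and 6 were negative after centring. In myCAF against qPSC 6 of 18 were negative, with a median of 0.03 beside 0.01, and in iCAF against myCAF 14 of 18, with a median of -0.18 beside -0.15. After centring, the median of all genes was 0.05 in iCAF against qPSC, 0.003 in myCAF against qPSC and 0.05 in iCAF against myCAF. The share of all genes with negative values is not given here. Counts of negative genes in this and the other lists are thus not a result about a list. The list medians of the iCAF comparisons include iCAF replicate 3 and are not given without it. Without that library the median of all genes was -0.03 in iCAF against qPSC. Birc5, which encodes survivin and is high in dividing cells, was at 71.6, 71.2 and 89.8 TPM in iCAF, 66.9, 66.3 and 65.9 TPM in myCAF, and 61.9, 63.3 and 63.1 TPM in qPSC libraries. The 3 groups did not overlap, with iCAF on top, and the log2 difference against qPSC was 0.29 (limma, adjusted p = 0.259). Endog, a mitochondrial nuclease, had the smallest p of the list in myCAF against qPSC, at -0.22 (limma, adjusted p = 1). Apaf1, the apoptosome scaffold, was at 6.21 ± 2.24 TPM in iCAF and 9.33 ± 1.28 TPM in myCAF libraries (SD, n = 3 each), a log2 difference of -0.57 (limma, adjusted p = 0.247) and of -0.27 without iCAF replicate 3.

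Of the 11 tested genes of death receptor signalling, 11 were negative in iCAF against qPSC, with a median of -0.26 beside -0.15 for all genes. In myCAF against qPSC 8 were negative (median -0.10 beside 0.01), and in iCAF against myCAF 10 (median -0.14 beside -0.15). After centring, 6, 8 and 5 were negative in the same order. Fas, a death receptor, was at 27.2, 28.0 and 26.0 TPM in iCAF, 28.1, 31.1 and 24.3 TPM in myCAF, and 36.8, 37.4 and 33.9 TPM in qPSC libraries. Every library with primed fibroblasts was below every qPSC library, with log2 differences of -0.40 for iCAF (limma, adjusted p = 0.163) and -0.37 for myCAF (limma, adjusted p = 0.329). Tnfsf10, which encodes the ligand TRAIL, averaged 0.602 ± 0.126 TPM in iCAF and 1.07 ± 0.406 TPM in myCAF libraries (SD, n = 3 each), a log2 difference of -0.35 (limma, adjusted p = 0.269).

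The p53 targets outside the family, which bear on Bbc3 and Bax as fellow targets, were negative in 15 of 15 tested genes in iCAF against qPSC, with a median of -0.29 beside -0.15 for all genes, and in 12 of 15 after centring. In myCAF against qPSC 12 of 15 were negative (median -0.10 beside 0.01), and in iCAF against myCAF 13 of 15 (median -0.25 beside -0.15). Cdkn1a, which encodes the cell cycle inhibitor p21, was at 157, 188 and 164 TPM in iCAF, 209.8, 218 and 209 TPM in myCAF, and 224, 216 and 241 TPM in qPSC libraries. The iCAF libraries were below all 6 others, and here replicate 3 lay between the other iCAF libraries. The log2 difference against qPSC was -0.42 (limma, adjusted p = 0.0699), and without iCAF replicate 3 Cdkn1a was lower (limma, adjusted p = 0.0471). Without that library Sesn2 (limma, adjusted p = 0.0224) and Eda2r (limma, adjusted p = 0.0463), a stress-response gene and a receptor gene of the TNF family, also passed, at -0.48 and -0.41. With the block added to that fit none of the 3 passed (limma, adjusted p = 0.151 for Cdkn1a, 0.0640 for Sesn2 and 0.201 for Eda2r). With the length trend removed or centring added instead, Cdkn1a did not pass (limma, adjusted p = 0.0564 and 0.091). Sesn2 (limma, adjusted p = 0.0247 and 0.0269) and Eda2r (limma, adjusted p = 0.0405 and 0.0490) did pass. Over all alternatives the adjusted p ranged from 0.027 to 0.342 for Cdkn1a, from 0.0224 to 0.348 for Sesn2 and from 0.0341 to 0.504 for Eda2r (limma). Cdkn1a was at -0.32 in iCAF against myCAF (limma, adjusted p = 0.146). Phlda3, which encodes an inhibitor of AKT, averaged 254 ± 28.5 TPM in iCAF, 196 ± 18.7 TPM in myCAF and 298 ± 34.0 TPM in the qPSC libraries (SD, n = 3 each), at -0.60 in myCAF against qPSC (limma, adjusted p = 0.161), and it passed without iCAF replicate 3 (limma, adjusted p = 0.0240, range over the alternatives 0.0226 to 0.637) and with the block added to that fit (limma, adjusted p = 0.0366). Sesn2, Eda2r and the values without that library were chosen after values were seen.

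Of 14 tested genes of transcription factors known to act on the family, 14 were negative in iCAF against qPSC, and 9 after centring. Their median there was -0.29 beside -0.15 for all genes. Without iCAF replicate 3 each of these values was higher, with Rela at -0.07 instead of -0.27 and Trp53 at 0.01 instead of -0.11. In myCAF against qPSC 6 were negative (median 0.01 beside 0.01). In iCAF against myCAF 14 were negative (median -0.31 beside -0.15), and 10 after centring. Foxo3, which encodes a factor known to induce Bcl2l11 and Bbc3, was at 24.3, 26.7 and 15.1 TPM in iCAF, 35.7, 28.6 and 42.3 TPM in myCAF, and 34.2, 32.7 and 35.1 TPM in qPSC libraries. The iCAF libraries were below all others, and Foxo3, with 7571 bases of exon, was lowest in iCAF replicate 3. Whether Foxo3 bears on Bcl2l11 or Bbc3 here was not tested. The log2 difference of Foxo3 against qPSC was -0.64 (limma, adjusted p = 0.243), and without replicate 3 it was -0.40 (limma, adjusted p = 0.177, range over the alternatives 0.0816 to 0.559). Atf4, a stress-response factor, averaged 721 ± 35.2 TPM in iCAF, 885 ± 21.1 TPM in myCAF and 776 ± 32.8 TPM in the qPSC libraries (SD, n = 3 each). Its highest group was myCAF, at 0.19 against qPSC (limma, adjusted p = 0.517), and iCAF was at -0.30 against myCAF (limma, adjusted p = 0.113).

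Of 8 ubiquitin enzymes acting on MCL1 and mitochondrial channel genes, 6 were negative in iCAF against qPSC (median -0.10 beside -0.15 for all genes). In myCAF against qPSC 4 were negative (median -0.00081 beside 0.01), and in iCAF against myCAF 7 (median -0.10 beside -0.15). After centring, 3, 4 and 3 were negative in the same order. March5, a ubiquitin ligase of the mitochondrial membrane, averaged 159 ± 11.0 TPM in iCAF, 164 ± 8.29 TPM in myCAF and 183 ± 4.15 TPM in the qPSC libraries (SD, n = 3 each), at -0.20 for iCAF (limma, adjusted p = 0.290) and -0.16 for myCAF against qPSC (limma, adjusted p = 0.834). Usp9x, which encodes a deubiquitinase that stabilises MCL1, was at -0.55 in iCAF against myCAF (limma, adjusted p = 0.286) and at -0.18 without iCAF replicate 3.

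Bcl2l11 had the widest range of group means in the family, 0.71 on the log2(TPM + 1) scale, and the 5 genes whose profile over the 9 libraries was most like it were named by the root-mean-square difference after centring each gene on its mean. They were Itpr2, a calcium channel gene of the endoplasmic reticulum, at 0.0557, Rusc2 at 0.0626, Hdac4, a histone deacetylase gene, at 0.0681, Spata2 at 0.0695 and Dusp4, a phosphatase gene that dampens ERK and other MAP kinases, at 0.0750 log2 units. Dusp4 was at 61.3, 63.5 and 37.4 TPM in iCAF, 78.9, 77.4 and 86.1 TPM in myCAF, and 89.8, 81.6 and 82.2 TPM in qPSC libraries. Itpr2 was at 12.7, 14.7 and 7.42 TPM in iCAF, 17.2, 17.9 and 21.1 TPM in myCAF, and 17.5, 18.2 and 18.2 TPM in qPSC libraries. For both genes the iCAF libraries were the lowest and replicate 3 was the lowest of them. Because the genes were chosen for their likeness to Bcl2l11, this shared pattern follows from the choice. A link of these genes to Bcl2l11 was not tested.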

How the data were processed

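Messenger RNA of sorted PancOVA cells was sequenced with a stranded kit as single reads of 50 bases, per the labels' protocols. A table of TPM for 41457 gene symbols is what the authors deposited, and in it each library sums to 1000000. Salmon, R 4.0.1 and DESeq2 are named by the submitters' processing notes without their roles, and a genome build or annotation was not given in the sources used here. Such values are relative, so a library with another composition shifts all its genes.

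Sample titles gave the groups and the replicate numbers. The 11704 genes that reached 1 TPM in 3 or more libraries were fitted by group over all 9 libraries together, as log2(TPM + 1), using limma 3.58.1 (R 4.3.3) and its mean-variance trend. P-values were adjusted over all tested genes by Benjamini-Hochberg, with a threshold of 0.05. Fold changes on this scale understate those of low genes. Exon lengths and coordinates came from GENCODE M21 (GRCm38), to which 98.8% of symbols matched. Multiplied by exon length, TPM fell on whole multiples of a library's constant in 97.8% to 98.1% of the genes below 200 reads (tolerance 0.05 reads). These implied reads gave the depth and served limma-voom as an alternative. The values for Pmaip1 and Bad were not whole. Libraries of a group differed beyond sampling noise: the chi-square per degree of freedom was at least 8.06. It was 173 for iCAF replicate 3 against replicate 1 and 190 against replicate 2.

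All 10 members were named. Of each pathway list the called genes were to be named, or with no call the 1 gene with the smallest p, and genes outside this rule were chosen after their values were seen. The members and lists were chosen with earlier results of these data known. The listed gene Ddit3 was not analysed here. Promoter windows came from RefSeq (GRCm38.p6). Alternatives were another pseudocount, filters and scalings, 6 libraries only, a replicate block, no trend, and each library left out in turn. Chosen after seeing the data were limma-voom, removal of the gene-length trend (lowess on log10 exon length), and these or the block without iCAF replicate 3. The procedure was run on simulated data that had no outlying library and no gene-length trend. That run therefore does not show how the procedure performs with a library such as iCAF replicate 3. Tables and figures were made in Python 3.11.15 (pandas 2.3.3, matplotlib 3.10.9).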

Additional observations from a re-analysis of the deposited data

How the results depend on the processing

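Of 657 values of the 10 members under 22 alternatives, 612 kept their direction and side of the threshold, 8 passed only under a setting, all of them Bcl2l11 and all lower, and 37 changed sign, none of them past the threshold. The cause of the changes below was not tested.

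The number of genes called in iCAF against qPSC was 70. It was 5 with no filter, 24 with centring, 30 with 6 libraries only, 45 with limma-voom, 104 with the length trend removed, 147 with it removed and without iCAF replicate 3, and 0 to 194 with 1 library left out (174 without iCAF replicate 3). In myCAF against qPSC it was 0, and it was 1 with no filter, 378 with 6 libraries only, 5 with limma-voom, 40 with the length trend removed, and 0 to 331 with 1 library left out, the highest being without iCAF replicate 3. Without that library it was 410 with the trend removed, 334 with centring and 66 with the block. In iCAF against myCAF it was 7. It was 1 with a pseudocount of 0.1, with no filter or without the trend, 0 with centring, 6 libraries only or limma-voom, 46 with the length trend removed, and 0 to 281 with 1 library left out. Without iCAF replicate 3 it was 77 with the trend removed and 49 with centring. Members called were 1 with the length trend removed, alone or without iCAF replicate 3, in both iCAF comparisons (beside 0.893% and 1.26% of all genes against qPSC, and 0.395% and 0.661% against myCAF). With centring without that library, 1 was called in iCAF against myCAF, beside 0.419% of all genes. With 1 library left out, 0 to 1 were called. The call against qPSC came without iCAF replicate 3 (beside 1.49% of all genes). Those against myCAF came without iCAF replicate 2 (2.37%) or 3 (0.598%).

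After each gene was centred within its group, same-numbered libraries correlated at r from -0.35 to 0.25 and differently numbered ones from -0.35 to 0.31. Same-numbered libraries were at 0.07 to 0.25 for iCAF with qPSC and at -0.35 to -0.27 for iCAF with myCAF. For myCAF with qPSC they were at -0.31 to 0.03. Centring within groups of 3 ties these values to each other, so they cannot show whether replicate numbers pair the libraries. With the replicate block 22, 0 and 0 genes were called in iCAF against qPSC, myCAF against qPSC and iCAF against myCAF, and no member was.

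Centring moved the median of all genes in iCAF against qPSC to 0.05, against -0.15, and unadjusted calls to 1372 higher and 945 lower, against 228 and 1623. Changes of sign in iCAF against qPSC were Bcl2l1 (0.15 with centring, 0.036 with limma-voom, 0.11 with the trend removed), Mcl1 (0.11 with centring, 0.027 with the trend removed), Pmaip1 (0.11) and Bid (0.074) with centring. Without iCAF replicate 3, Bcl2l1 was at 0.13, 0.16 and 0.082, and Mcl1 at 0.048, 0.089 and 0.060, with the trend removed, centring and the block. In the same combinations Bax was at -0.014 with the trend removed and -0.043 with the block, Bid at 0.020 with the trend removed and 0.060 with centring, and Pmaip1 at 0.036 with centring and 0.099 with the block. In iCAF against myCAF, Bbc3 was at 0.057 with centring and 0.017 with centring and without iCAF replicate 3. With 1 library left out, ranges that cross 0 were, in iCAF against qPSC, Bcl2l1 -0.14 to 0.11, Mcl1 -0.17 to 0.033, Bax -0.022 to 0.083, Bak1 -0.11 to 0.15, Bid -0.21 to 0.0041 and Pmaip1 -0.28 to 0.11. In myCAF against qPSC they were Bcl2 -0.0020 to 0.051, Bak1 -0.16 to 0.0098 and Pmaip1 -0.068 to 0.32. In iCAF against myCAF they were Bcl2l1 -0.043 to 0.20, Bak1 -0.053 to 0.21 and Bid -0.069 to 0.14.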
